A study of Mus musculus with 20 samples.

Results

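The genes followed here are 10 members of the BCL2 family, and the label of survival genes fits only part of them: Mcl1, Bcl2 and Bcl2l1 encode pro-survival proteins, Bax and Bak1 encode the pore-forming effectors, and Bcl2l11, Bbc3, Pmaip1, Bid and Bad encode BH3-only activators or antagonists of the first group. Members were the rows of the raw count table whose Ensembl identifier carries one of these symbols in the FPKM table, and all 10 were found among 47069 genes. The cells were IgA+ CD138+ small-intestinal plasma cells, sort-purified from C57BL/6 mice of wild-type genotype with no treatment or added allele, housed under light and dark phases with food at all times. Each of the 20 libraries came from 1 animal, with 5 animals at each of ZT0, ZT6, ZT12 and ZT18, where ZT0 is lights on and ZT12 is lights off; the age of the animals is not given in the sources used here. The study asked which transcripts of these cells vary with the time of day.

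Cells die by the mitochondrial route when BAX and BAK open the outer mitochondrial membrane and cytochrome c leaves it. Pro-survival proteins hold the effectors and the BH3-only proteins in check, and BH3-only proteins are raised by stress or by loss of survival signals. Long-lived plasma cells are known to depend on MCL1, a protein with a short life, which receptor BCMA helps to maintain.

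Library totals ranged from 35.6 M to 68.0 M counts, of which 52.6% to 62.3% fell on immunoglobulin gene segments. Plasma cell markers matched the sort: Xbp1 was at 1860 to 2130 CPM (counts relative to the library total, scaled between libraries by TMM). Sdc1, which encodes CD138, was at 693 to 862. Summed, 7 B cell markers were at 12.0 to 19.9 CPM and 9 markers of T cells and innate lymphoid cells at 21.5 to 32.4. Not all plasma cell markers were steady: Irf4 averaged 596, 309, 447 and 310 CPM at ZT0, ZT6, ZT12 and ZT18. Of the 9 listed, 3 passed the test over the 4 times given below, against 19.5% of all genes tested. Paneth and goblet markers summed to 67.7 CPM in ZT6 replicate 4 and to 24.5 or less in the other libraries, and enterocyte markers to 42.2 to 77.0 CPM; ZT6 replicate 4 and ZT18 replicates 2 and 3 held the most epithelial counts relative to the library total. The 8 macrophage and dendritic cell markers summed to 79.8 to 105 CPM at ZT0, 68.6 to 101 at ZT6, 84.7 to 99.0 at ZT12 and 73.1 to 83.4 at ZT18, and their part in the results on the members was not tested. Immediate early genes, which are switched on within minutes of a stimulus and also by tissue handling, moved with the time of day: 9 of them summed to 4480 to 7990 CPM at ZT0 and 4640 to 7330 at ZT12, against 2180 to 3980 at ZT6 and 3090 to 3870 at ZT18. In sorted bulk RNA, fewer cells that express a gene and less RNA per cell cannot be told apart.

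The promoters of 9 members were read from RefSeq on build GRCm38.p6, with 15 start sites in all, each from 250 bases before to 50 after the start. They were searched for CACGTG (the E-box bound by the clock protein pair CLOCK and BMAL1), TTATGNAA (D-box) and TGANTCA (AP-1), on both strands and with no overlap between motifs. Shown first are the 250 bases before the start of Mcl1 (chr3:95658471-95658720, plus strand) and of Bcl2l11 (chr2:128125788-128126037, plus strand), the members with the highest levels, whose levels moved in opposite directions. None of the 3 motifs was found in either window.
Mcl1: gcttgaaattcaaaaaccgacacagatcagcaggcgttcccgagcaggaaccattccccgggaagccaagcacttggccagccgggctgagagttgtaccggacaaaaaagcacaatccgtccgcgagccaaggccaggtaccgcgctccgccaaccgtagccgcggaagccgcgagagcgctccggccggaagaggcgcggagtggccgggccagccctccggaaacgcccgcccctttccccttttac
Bcl2l11: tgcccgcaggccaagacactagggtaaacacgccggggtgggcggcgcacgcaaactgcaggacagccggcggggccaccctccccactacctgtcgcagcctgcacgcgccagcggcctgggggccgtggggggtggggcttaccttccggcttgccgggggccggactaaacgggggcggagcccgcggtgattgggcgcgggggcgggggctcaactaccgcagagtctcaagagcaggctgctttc

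E-boxes were found at 2 of the 15 start sites, against 7.15% of 32851 mouse promoters of the same length, and AP-1 and D-box motifs at 0 of 15, against 7.81% and 3.38%. The 30 bases around the match are shown for Bbc3, whose level changed with time, and for Bax, whose level did not pass the test, with the E-box in capitals. The E-box in the Bbc3 stretch (chr7:16310355-16310384, plus strand) begins 64 bases before start site 3 of that gene. The Bax stretch spans the start itself (chr7:45466890-45466919, minus strand), which has a second match 35 bases downstream.
Bbc3: gcggggcgggcgCACGTGgcggcgtcgagg
Bax: agcgatgatgatCACGTGactagtcctgcg

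Mcl1 was the most abundant member, and Bcl2 and Bcl2l1 were low beside it. In deposited FPKM, which sets levels per length, Mcl1 averaged 249 ± 30.3 (SD, n = 20 libraries) and made up 94.9% ± 0.607 of the summed FPKM of the 3 pro-survival members, with no library under 93.9%. Bcl2l11 followed at 60.5 ± 19.0 FPKM, then Bax at 32.5 ± 3.62, Bbc3 at 29.1 ± 5.02 and Pmaip1 at 22.9 ± 3.64. The other 5 were Bid at 12.1 ± 1.36, Bak1 at 10.7 ± 1.14, Bcl2 at 7.59 ± 1.07, Bad at 6.08 ± 0.966 and Bcl2l1 at 5.87 ± 1.5 FPKM. Neighbours did not all separate: Bad was above Bcl2l1 in 11 of 20 libraries, Bax above Bbc3 in 16 and Bcl2 above Bad in 16, and the means of the first 2 pairs differed by less than the SD of either gene. Mcl1 exceeded Bcl2l11 in every library, Bid exceeded Bak1 in 20 of 20 by a mean factor of 1.13, and Bcl2l11 exceeded Bax in 19. The strand of the libraries is not given in the sources used here, so counts of Bak1, Bid, Bad and Bcl2 cannot be told apart from those of genes on the opposite strand that share 9200, 913, 620 and 33103 bases with them (Ggnbp1 at 2.62 CPM, Bcl2l13 at 30.7, Gpr137 at 8.48 and D630008O14Rik at 0.912).

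**Figure D1:**
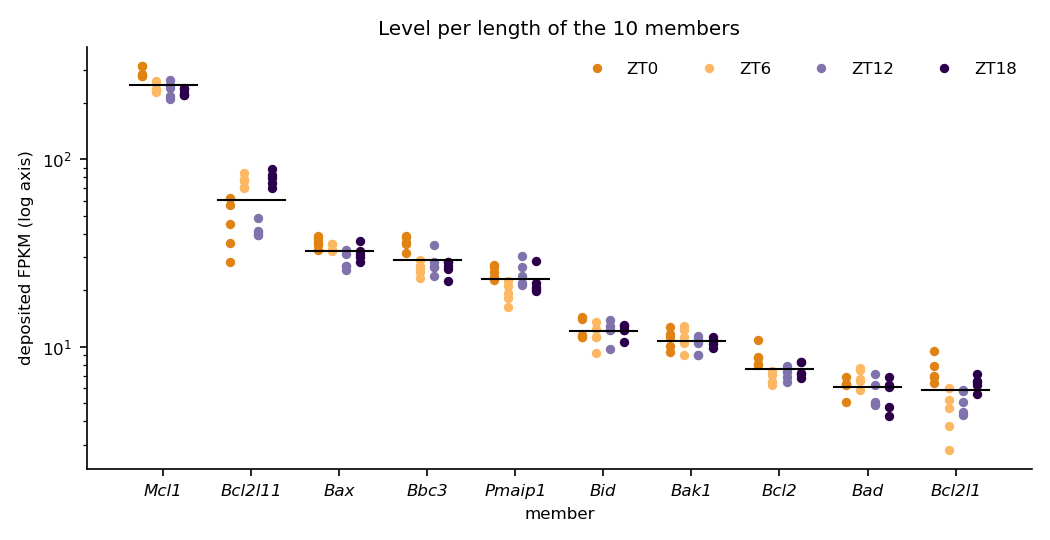
Deposited FPKM (log axis) of the 10 members in order of their mean, 1 point per library coloured by time, with a line at the mean of 20 libraries. Mcl1 stands apart at 209 to 313 FPKM, and Bcl2l11 separates into higher points at ZT6 and ZT18 and lower points at ZT0 and ZT12.

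All 10 members passed the filter on low counts, from 141 to 382 counts per library for Bad to 16432 to 38329 for Mcl1. In a test for a difference between any of the 4 times, 5 of 10 members were called (Mcl1, Bcl2, Bcl2l1, Bcl2l11 and Bbc3), against 19.5% of 13967 genes tested. The test was edgeR's quasi-likelihood F-test with Benjamini-Hochberg adjustment over all genes, called at adjusted p under 0.01, and it is the source of each adjusted p below unless another is named. Bax (adjusted p = 0.135), Bak1 (0.917), Bid (0.313), Bad (0.413) and Pmaip1 (0.0217) did not pass.

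**Figure D2:**
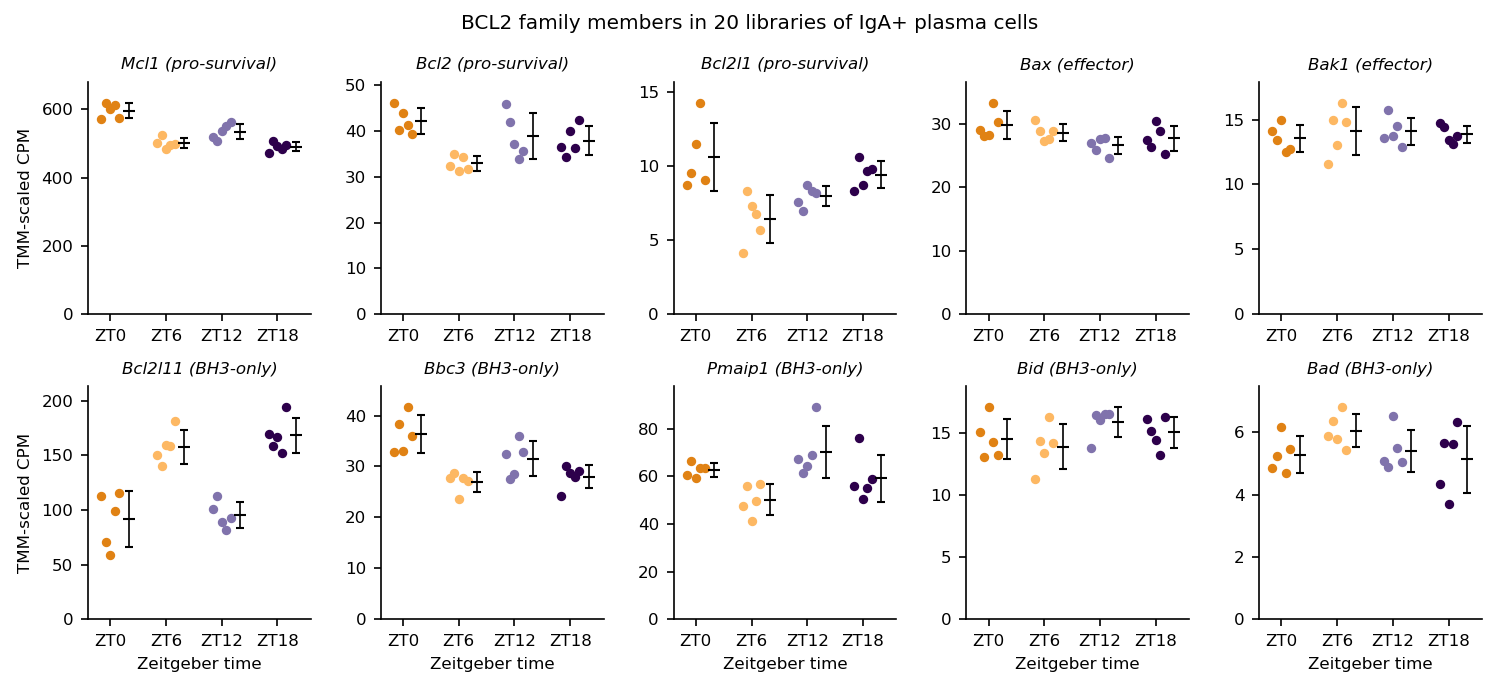
TMM-scaled CPM (from 0) of each member by Zeitgeber time, 1 point per library, with the mean and SD of 5 beside the points. Bcl2l11 is at 140 to 194 CPM in all ZT6 and ZT18 libraries and at 59.1 to 116 in all others, while Mcl1 is highest at ZT0.

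Mcl1 was highest at ZT0. Its level was 571, 619, 599, 612 and 573 CPM at ZT0, 500, 524, 484, 494 and 499 at ZT6, 518, 507, 536, 551 and 561 at ZT12, and 473, 508, 492, 483 and 494 at ZT18. Every ZT0 library lay above every library of the other times, while ZT6 and ZT18 overlapped throughout and ZT12 overlapped both at its lower end. Mcl1 fell 1.19-fold from ZT0 to ZT6 (log2 -0.25 ± 0.036 SE, adjusted p = 7.05e-06) and rose 1.21-fold from ZT18 to ZT0 (log2 0.28 ± 0.036, adjusted p = 2.62e-06). At ZT12 it was 1.11-fold lower than at ZT0 (log2 -0.15 ± 0.036, adjusted p = 0.00493). This call was kept in 20 of 29 alternatives and was lost without any of ZT0 replicates 2, 3 and 4 or ZT12 replicates 1, 2 and 3 (the adjusted p ranged from 0.00018 to 0.0767 over all alternatives).

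Bcl2, the founding pro-survival member, was lowest at ZT6. It was at 46.2, 40.2, 43.9, 41.3 and 39.3 CPM at ZT0, 32.3, 34.9, 31.2, 34.4 and 31.8 at ZT6, 46.0, 41.9, 37.1, 33.9 and 35.7 at ZT12, and 36.5, 34.3, 40.0, 36.4 and 42.4 at ZT18. ZT0 and ZT6 did not overlap, whereas ZT12 and ZT18 spread across most of the range between them. Bcl2 fell 1.28-fold from ZT0 to ZT6 (log2 -0.36 ± 0.069, adjusted p = 0.000386), and the return from ZT6 to ZT12 did not pass (log2 0.24 ± 0.069, adjusted p = 0.0219).

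Bcl2l1, which encodes BCL-XL, had its lowest values at ZT6 as well. It was at 8.72, 9.54, 11.5, 14.3 and 9.09 CPM at ZT0, 4.12, 8.30, 7.32, 6.76 and 5.69 at ZT6, 7.62, 7.01, 8.71, 8.32 and 8.22 at ZT12, and 8.30, 10.6, 8.76, 9.71 and 9.84 at ZT18. No ZT6 library was above any ZT0 library, and the highest ZT6 library was level with the lowest at ZT18. Bcl2l1 fell 1.65-fold from ZT0 to ZT6 (log2 -0.72 ± 0.144, adjusted p = 0.000899) and was 1.47-fold higher at ZT18 than at ZT6 (log2 0.55 ± 0.145, adjusted p = 0.0095). With only ZT0 and ZT6 in the fit the first gave an adjusted p of 0.0234. The ZT18 call was kept in only 8 of 29 alternatives, and leaving out ZT6 replicate 4 and ZT18 replicates 2 and 3 the test over all 4 times gave an adjusted p of 0.0114.

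The effectors BAX and BAK are set off by the BH3-only proteins, and neither transcript passed a test with TMM scaling. Bax ranged from 24.6 to 33.3 CPM over the 20 libraries, with means of 29.8 ± 2.16, 28.6 ± 1.31, 26.6 ± 1.33 and 27.7 ± 2.01 (SD, n = 5) at ZT0, ZT6, ZT12 and ZT18. Scaled to library totals instead, Bax passed the test over the 4 times (adjusted p = 0.00719). Bak1 ranged from 11.6 to 16.3 CPM, and its 4 means lay between 13.5 and 14.1.

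Bcl2l11, which encodes BIM, a BH3-only protein that binds every pro-survival protein of the family, was high in the middle of each phase and low at the light transitions. It was at 113, 70.5, 59.1, 98.7 and 116 CPM at ZT0, 150, 140, 160, 159 and 182 at ZT6, 101, 113, 89.4, 82.1 and 92.5 at ZT12, and 170, 159, 167, 152 and 194 at ZT18. The lowest library at ZT6 or ZT18 lay above the highest at ZT0 or ZT12, while ZT6 and ZT18 overlapped with each other, as did ZT0 and ZT12. ZT0 had the widest spread, with replicates 2 and 3 well under the other 3.

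All 4 steps of 6 h passed the test for Bcl2l11. It rose 1.73-fold from ZT0 to ZT6 (log2 0.79 ± 0.158 SE, adjusted p = 0.00234), fell 1.65-fold to ZT12 (log2 -0.73 ± 0.157, adjusted p = 0.0072), rose 1.76-fold to ZT18 (log2 0.82 ± 0.158, adjusted p = 0.00156) and fell 1.84-fold to ZT0 (log2 -0.88 ± 0.158, adjusted p = 0.0012). The contrasts 12 h apart were small, at log2 0.07 ± 0.157 for ZT12 minus ZT0 and 0.09 ± 0.157 for ZT18 minus ZT6 (adjusted p = 0.874 and 0.768). When the 3 libraries rich in epithelial counts were left out, the first 3 steps kept their size but gave adjusted p of 0.012, 0.0282 and 0.0112, with 1 to 2 fewer libraries at ZT6 and ZT18. The fall from ZT6 to ZT12 was kept in 16 of 29 alternatives, with adjusted p from 9.89e-05 to 0.0282, and was lost when any one of the 5 ZT6 libraries was left out, and also without ZT12 replicate 1, 3, 4 or 5 or ZT18 replicate 1 or 2. With only the 2 groups of a step in the fit, the steps into and out of ZT0 gave adjusted p of 0.0203 and 0.0325.

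Because of this pattern, a contrast of the mean of ZT6 and ZT18 minus the mean of ZT0 and ZT12 was added after the values were seen, and its results describe what was already visible. Bcl2l11 was 1.74-fold higher in the middle of the phases (log2 0.80 ± 0.111, adjusted p = 9.72e-05), and of 7783 genes outside immunoglobulin segments that averaged 5 CPM or more, 17 had a larger change in either direction. Called in the opposite direction were Mcl1 (log2 -0.19 ± 0.026, adjusted p = 2.51e-06), Bbc3 (log2 -0.30 ± 0.053, adjusted p = 0.000123) and Bcl2 (log2 -0.20 ± 0.049, adjusted p = 0.0044), the last in 17 of 28 alternatives. These are 4 of 10 members called, against 9.45% of all genes tested, with 1 higher against 5.11% and 3 lower against 4.34%.

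The immediate early genes moved against Bcl2l11 and with Mcl1, and their part in these results was not tested. In the mid-phase contrast 7 of the 9 were lower and passed, against 4.34% of all genes tested. The summed level of the 9 at ZT6 and ZT18 did not overlap that at ZT0 and ZT12. Inside a time this order held in part. At ZT0 the sum was 7990 and 7950 CPM in replicates 2 and 3, where Bcl2l11 was at 70.5 and 59.1, and 4690 and 4480 in replicates 1 and 5, where Bcl2l11 was at 113 and 116. At ZT12 the sum was lowest in replicate 2 (4640 CPM) and highest in replicate 4 (7330), which held the highest and the lowest Bcl2l11 of that time. At ZT6 the highest sum (3980 CPM, replicate 2) went with the lowest Bcl2l11 of that time (140 CPM). The lowest sums there, 2180 and 2200 CPM, went with 150 and 182 CPM of Bcl2l11. At ZT18 the highest sums, 3660 and 3870 CPM, went with the lowest Bcl2l11, 152 and 159 CPM. Sums of 3090, 3200 and 3500 CPM at ZT18 went with 167, 194 and 170, in no such order. The 8 macrophage and dendritic cell markers were also lower in the mid-phase contrast, 8 of 8 in direction, where the median over all genes tested was log2 -0.01. Of the 8, 1 passed, against 4.34% of all genes tested that were lower and passed. The labels give no day or order of harvest, so the time of day and the handling of each pair of times cannot be told apart.

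**Figure D3:**
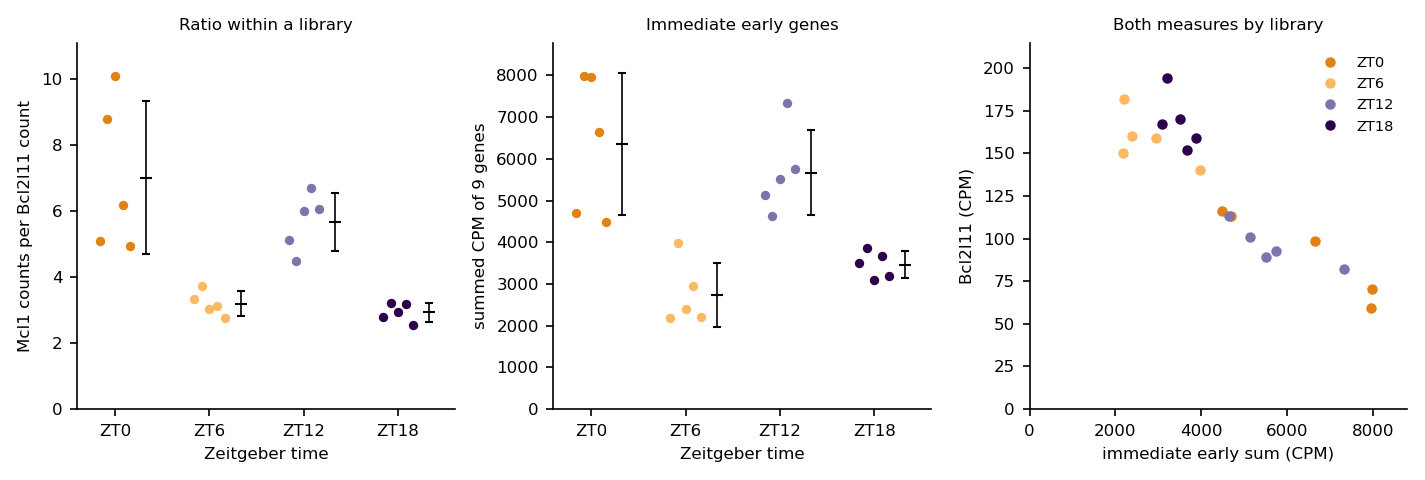
Left, Mcl1 counts per Bcl2l11 count by time; middle, summed CPM of 9 immediate early genes by time (points are libraries, with mean and SD of 5, axes from 0); right, Bcl2l11 CPM against that sum, 1 point per library. Libraries with sums of 4480 CPM or more are those of ZT0 and ZT12 and lie at or under 116 CPM of Bcl2l11.

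Bbc3, which encodes PUMA, a p53 target that also binds every pro-survival protein, moved with Mcl1 and not with Bcl2l11. It was at 32.8, 38.4, 33.1, 41.6 and 36.0 CPM at ZT0, 27.8, 28.8, 23.6, 27.7 and 27.1 at ZT6, 32.5, 27.5, 28.6, 36.0 and 32.9 at ZT12, and 24.2, 30.0, 28.7, 28.0 and 29.2 at ZT18. All ZT0 libraries lay above all of ZT6 and ZT18, and ZT12 overlapped each of the other times. Bbc3 fell 1.35-fold from ZT0 to ZT6 (log2 -0.43 ± 0.074, adjusted p = 0.00012) and rose 1.3-fold from ZT18 to ZT0 (log2 0.38 ± 0.074, adjusted p = 0.000655), and both calls were kept in 29 of 29 alternatives. The E-box shown above lies before start site 3 of this gene.

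Pmaip1, which encodes NOXA, the BH3-only protein that binds mainly MCL1, had its highest values at ZT12. It was at 60.5, 66.6, 59.4, 63.5 and 63.5 CPM at ZT0, 47.7, 55.9, 41.4, 49.5 and 56.9 at ZT6, 67.2, 61.5, 64.2, 69.2 and 89.0 at ZT12, and 55.8, 76.1, 50.4, 55.0 and 59.0 at ZT18. ZT6 lay below both ZT0 and ZT12 with no overlap, and 1 library at ZT12 and 1 at ZT18 stood above their groups. Those libraries, ZT12 replicate 5 and ZT18 replicate 2, also had the highest summed level of 8 heat shock genes in their groups, 5060 and 3560 CPM. The median sum of these heat shock genes was 740, 778, 2210 and 1260 CPM at ZT0, ZT6, ZT12 and ZT18. Of the 8, 0 passed over the 4 times. Their part in the Pmaip1 values was not tested. The difference over 4 times did not pass (adjusted p = 0.0217), and passed in 4 of 28 alternatives, with DESeq2 (0.00434), with the replicate number as a block (0.00129), without ZT18 replicate 2 (0.00204) and without the epithelial libraries (0.00992).

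Bid, which caspase-8 cuts to link death receptors to mitochondria, ranged from 11.3 to 17.1 CPM, with means from 13.9 to 15.9. Bad, a BH3-only protein of growth factor signalling, ranged from 3.70 to 6.80 CPM, with means from 5.14 to 6.05. Neither had a change in any step that passed, and the largest fitted change between times 12 h apart was log2 -0.24 ± 0.128 for Bad in ZT18 minus ZT6 (adjusted p = 0.231).

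Read by comparison, the most members were called between ZT0 and ZT6. In ZT6 minus ZT0, 5 of 10 members were called against 8.78% of all genes tested, 1 higher (Bcl2l11, against 4.65%) and 4 lower (Mcl1, Bcl2, Bcl2l1 and Bbc3, against 4.13%), and the count stayed at 5 without each library in turn. In ZT0 minus ZT18, 3 members were called against 7.57%, 2 higher (Mcl1 and Bbc3, against 3.38%) and 1 lower (Bcl2l11, against 4.19%). Both steps share the ZT0 libraries. ZT12 minus ZT6 and ZT18 minus ZT12 each had 1 member called, Bcl2l11, against 4.58% and 9.94%.

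Between times 12 h apart, 1 member was called in each contrast. In ZT12 minus ZT0 it was Mcl1, against 3.86% of genes, and in ZT18 minus ZT6 it was Bcl2l1, against 8.24%. The first count depended on the scaling: relative to library totals, where the median of all genes moved by -0.17, 5 members were lower at ZT12 and passed (Mcl1 log2 -0.32, Bcl2 -0.30, Bcl2l1 -0.56, Bax -0.33 and Bbc3 -0.37). With that scaling 921 of 13967 genes tested were lower and passed, and 38 were higher.

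**Figure D4:**
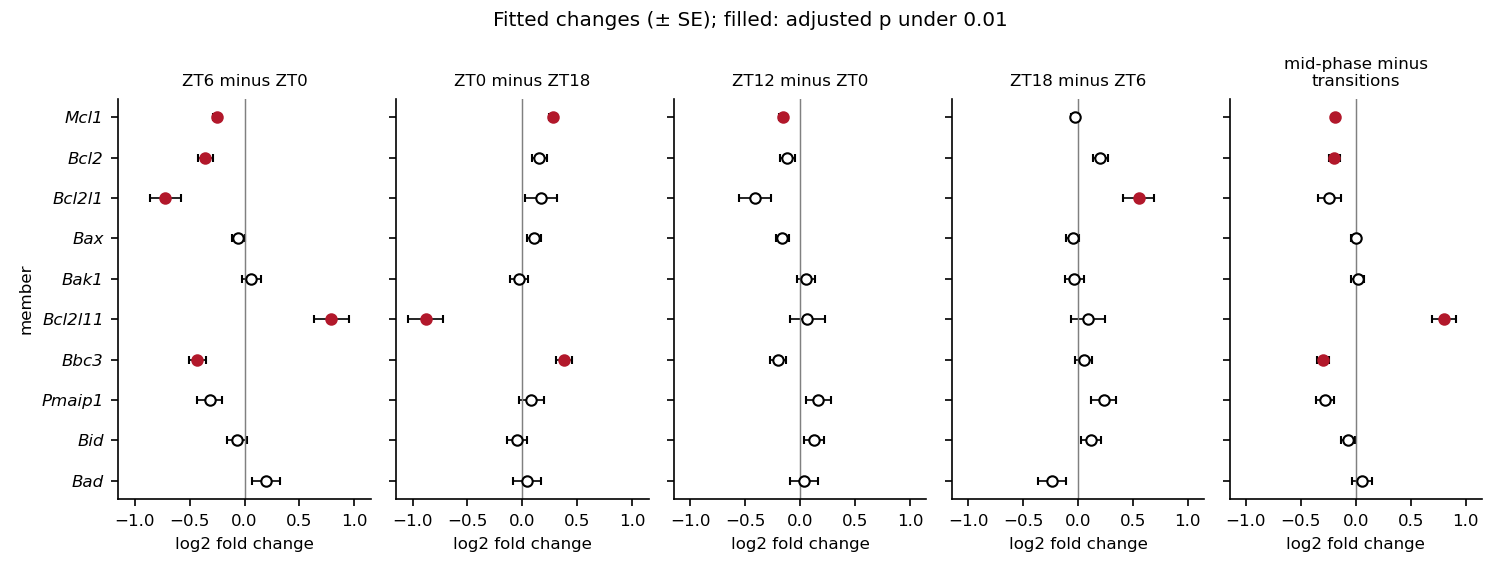
Fitted log2 fold change ± SE of each member in 5 contrasts, with filled points for adjusted p under 0.01. Bcl2l11 lies at 0.79 in ZT6 minus ZT0 and -0.88 in ZT0 minus ZT18, opposite to Mcl1 and Bbc3, and near 0 in both contrasts of times 12 h apart.

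A 24 h wave was called for 2 members, against 11.3% of genes tested. Mcl1 peaked at 0.731 h with a peak-to-trough fold of 1.12 (adjusted p = 0.00574), and Bcl2l1 at 20.4 h with a fold of 1.61 (adjusted p = 0.00349). The Mcl1 wave was kept in 18 of 28 alternatives, with adjusted p up to 0.0913, and was lost without any one of ZT0 replicates 2, 3 and 4, ZT12 replicates 1, 2 and 3 or ZT18 replicate 4. The Bcl2l1 wave was kept in 25 of 28, and was lost without ZT6 replicate 5, without ZT18 replicate 2 and without the 3 epithelial libraries (adjusted p up to 0.0244). The fitted wave of Bcl2l11 was 1.08-fold (adjusted p = 0.869), since a wave of this period has no term for a level that returns after 12 h. With the JTK rank test, taking each library once, 0 of 10 members passed at an adjusted p under 0.01, with the lowest at 0.0574 for Bcl2l1 and 0.826 for Mcl1. At the adjusted threshold that test called 227 of all genes. Of the members 2 (Bcl2l1 and Bax) had an unadjusted p under 0.05. The share of all genes at that unadjusted level is not given here, so this count has nothing to be set against.

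Ratios of counts within a library do not depend on the scaling. There were 4.93 to 10.1 Mcl1 counts for each Bcl2l11 count at ZT0 and 4.49 to 6.71 at ZT12, against 2.75 to 3.74 at ZT6 and 2.54 to 3.2 at ZT18. The ratio was thus lower in every mid-phase library than in every transition library. For this contrast, added after the values were seen, the log2 ratio differed by -1.01 between 10 and 10 libraries, given as a description. Its difference was log2 -0.26 in ZT12 minus ZT0 and -0.12 in ZT18 minus ZT6 (exact permutation tests, 2-sided, adjusted p = 0.294 for both, n = 5 a group).

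Mcl1 counts per Pmaip1 count were 9.02 to 10.1 at ZT0 and 6.30 to 8.35 at ZT12, and 8.78 to 11.7 at ZT6 and 6.68 to 9.77 at ZT18. ZT12 lay wholly under ZT0, at log2 -0.31 (exact permutation p = 0.00794, the smallest that 5 against 5 allows, adjusted over 6 tests 0.0476). ZT18 minus ZT6 was log2 -0.26 (exact permutation p = 0.0476, adjusted 0.143). Bcl2 counts per Bcl2l1 count had medians of 4.21, 5.08, 4.33 and 4.30 at the 4 times, and neither 12 h difference passed (log2 0.27 and -0.39, exact permutation, adjusted p = 0.25 and 0.159).

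In FPKM, Bcl2l11 made up 35.7% ± 7.01 and 37.4% ± 4.46 of the 5 BH3-only members at ZT0 and ZT12, and 54.3% ± 3.25 and 54.2% ± 3.02 at ZT6 and ZT18 (SD, n = 5).

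The genes whose log2 CPM was most like that of each pro-survival member over the 20 libraries, among 7783 genes and given as a description, were Slc15a4 (r = 0.915), Junb (0.915) and Snai1 (0.905) for Mcl1, Specc1l (0.846), Dop1a (0.821) and Zfp451 (0.772) for Bcl2, and Mfsd2a (0.884), Sdc4 (0.858) and Mvp (0.847) for Bcl2l1. Junb is one of the immediate early genes summed above. For Bcl2l11 they were Crem (0.957), Agpat4 (0.948) and Ripor2 (0.937). Crem, a transcription factor of cAMP signalling, averaged 64.3 and 64.7 CPM at ZT0 and ZT12 and 116 and 118 CPM at ZT6 and ZT18, and like Bcl2l11 its lowest library at ZT6 or ZT18 (97.7 CPM) lay above its highest at ZT0 or ZT12 (86.8).

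**Figure D5:**
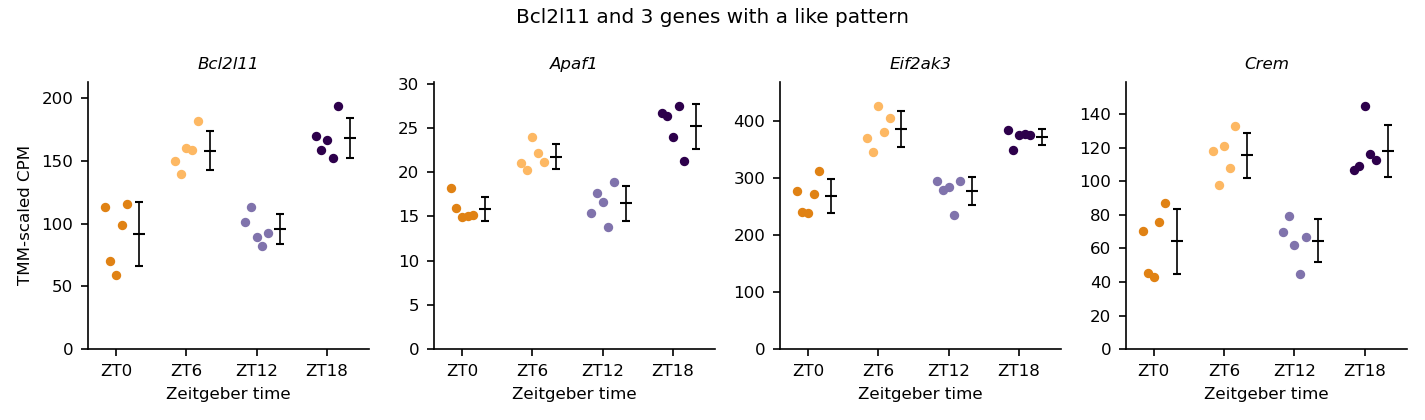
TMM-scaled CPM (from 0) of Bcl2l11, Apaf1, Eif2ak3 and Crem by Zeitgeber time, 1 point per library, with the mean and SD of 5. In each gene the ZT6 and ZT18 libraries lie above those of ZT0 and ZT12.

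Of 16 other BCL2 family genes, 11 had enough counts to test and 1 passed over the 4 times, against 19.5% of all genes. It was Bcl2l15, at 4.37, 2.76, 2.73 and 4.99 CPM at ZT0, ZT6, ZT12 and ZT18 (adjusted p = 0.000347). The pro-survival Bcl2l2, which encodes BCL-W, averaged 15.2 to 17.5 CPM (adjusted p = 0.114), and Bmf, a BH3-only gene, 33.8 to 39.0 (adjusted p = 0.235). Bnip3l, a receptor for the removal of mitochondria, averaged 38.1 to 43.8 CPM (adjusted p = 0.0586) and Bcl2l13 29.4 to 32.4 (adjusted p = 0.307).

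The rest of the family was low. Bnip3, Bcl2l12 and Bik averaged at most 2.30, 1.57 and 0.816 CPM, and the near-identical copies Bcl2a1a, Bcl2a1b and Bcl2a1d at most 0.619, 0.422 and 1.22, where reads may be split between copies. Bok had 13 counts and Bcl2l14 had 108 over the 20 libraries. Bcl2l10, Hrk and Bcl2a1c had 0 counts.

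Downstream of the mitochondria, 3 of 20 tested genes of the apoptosome, caspases and their inhibitors passed over the 4 times, no more than the 19.5% of all genes. Apaf1, the scaffold that cytochrome c assembles, followed the pattern of Bcl2l11. It was at 18.2, 16.0, 14.9, 15.0 and 15.2 CPM at ZT0, 21.0, 20.3, 24, 22.2 and 21.2 at ZT6, 15.4, 17.7, 16.6, 13.8 and 18.9 at ZT12, and 26.7, 26.4, 24, 27.5 and 21.3 at ZT18. Every mid-phase library lay above every transition library. In the contrast added after the values were seen, the difference was log2 0.54 ± 0.057 (adjusted p = 6.95e-08), given as a description. Birc3, an inhibitor of apoptosis induced by NF-kB, averaged 137, 90.8, 96.3 and 118 CPM (adjusted p = 9.18e-08), and Dffb, the caspase-activated nuclease, 13.7, 16.1, 12.8 and 12.1 (adjusted p = 0.0015).

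Upstream, 7 of 13 tested genes of p53 and its targets passed, against 19.5% of all genes. The list was chosen with earlier results of these data known. In ZT18 minus ZT6, 4 of the 13 were higher and passed and 0 were lower and passed. Over all 13967 genes tested, 565 were higher and passed and 586 were lower and passed. The median over the list was log2 0.17, beside 0.00 over all genes tested. The cell cycle inhibitor Cdkn1a averaged 4.26, 4.54, 5.12 and 7.47 CPM at ZT0, ZT6, ZT12 and ZT18 (adjusted p = 8.68e-05), and Ccng1 54.4, 51.2, 55.5 and 67.3 (adjusted p = 5.64e-06). Trp53 itself averaged 29.7, 26.7, 23.1 and 30.0 CPM (adjusted p = 0.000219). Zmat3 had its highest mean at ZT18 (15.9 CPM), Sesn2 at ZT12 (13.6), and Mdm4, an inhibitor of p53, had means of 91.5 and 91.2 CPM at ZT0 and ZT12 against 82.5 and 75.4 at ZT6 and ZT18.

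Among 24 other upstream regulators, 12 passed, against 19.5% of all genes. This list too was chosen with earlier results of these data known, so its share is not that of an independent choice. Eif2ak3, which encodes the endoplasmic reticulum stress kinase PERK, had the pattern of Bcl2l11, with means of 268, 385, 277 and 372 CPM. Its mid-phase libraries (345 CPM or more) did not overlap its transition libraries (312 or less). In the contrast added after the values were seen, its difference was log2 0.47 ± 0.05 (adjusted p = 7.59e-07), given as a description. Tsc22d3, a glucocorticoid-induced gene, had the opposite pattern, with 373, 291, 448 and 253 CPM (adjusted p = 1.49e-08). Tnfrsf17, which encodes BCMA, averaged 90.3, 104, 104 and 79.3 CPM (adjusted p = 8e-07), with its lowest mean at ZT18. Nfkb1 averaged 48.0, 36.6, 40.5 and 49.5 CPM, Rela 66.7, 62.8, 62.4 and 75.1, and Trib3 0.711, 1.23, 2.54 and 0.531, all past the threshold over the 4 times.

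Of the genes that govern MCL1 turnover or act beside it on mitochondria, 3 of 12 passed (Tpt1, Ubqln1 and March5), near the 19.5% of all genes. Tpt1, which encodes a partner that stabilises MCL1, averaged 809, 834, 933 and 828 CPM (adjusted p = 0.000104), and Ubqln1 47.3, 42.0, 52.2 and 51.6 (adjusted p = 0.000339). March5, a mitochondrial ubiquitin ligase, averaged 31.1 to 35.7 CPM (adjusted p = 0.00957). Of 10 death receptor genes 2 passed, level with the 19.5% of all genes: Traf2 (22.2, 15.6, 16.9 and 16.3 CPM, adjusted p = 0.000103) and Tnfrsf1b (15.8, 13.9, 15.0 and 19.2, adjusted p = 0.00102), and Traf2, like Mcl1 and Bbc3, was highest at ZT0.

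In ZT6 minus ZT0, where the most members were called, 6 of the 24 other upstream regulators passed (3 higher, 3 lower), 3 of 20 apoptosome genes (2 higher, 1 lower) and 1 lower in each of the p53 and death receptor lists, against 8.78% of all genes; the counts of 1 are at about that share. The medians of the 6 lists in this step lay between log2 -0.15 for the p53 list and 0.06 for the rest of the family, beside 0.00 over all genes tested.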

How the data were processed

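CD138+ IgA+ cells were sorted after collagenase D and DNase I digestion, poly-T-selected RNA was made into NEB libraries and 20 libraries were sequenced. The authors deposited raw counts for 47069 genes and FPKM for 18886 of them. For the aligner, genome build, annotation and strand no name is given in the sources used here. The deposited FPKM equal the count over the library total and 1 length per gene (0 of 13045 genes depart by more than 1e-06). Genes passing filterByExpr (13967) were scaled by TMM and fitted in edgeR 4.0.16 (R 4.3.3) with 4 groups of 5, quasi-likelihood F-tests, robust dispersion and a Benjamini-Hochberg threshold of 0.01, the study's own. CPM scaled by TMM with prior count 0.5 were used on the log scale. The common biological coefficient of variation was 0.224. Ratios took an offset of 0.5 counts and an adjusted p threshold of 0.05. GENCODE M21 (GRCm38) named 46488 identifiers and gave overlaps and immunoglobulin segments (Jchain not included); RefSeq GRCm38.p6 gave promoters.

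Alternatives were library totals, DESeq2 1.42.0 size factors and tests, scaling without immunoglobulin genes, 10 counts in all, no filter, a replicate block, 2 groups only, JTK, and leaving out each library or the 3 with the most epithelial counts. The scripts were tested on simulated data. Animals are the replicates. All members, every other family gene, up to 6 genes by p of each of the other 5 of 6 pathway lists, and the 3 genes most like Mcl1, Bcl2, Bcl2l1 and Bcl2l11 are named. Members and lists were chosen with earlier results of these data known.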

Additional observations from a re-analysis of the deposited data

Results flagged for a closer look

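In 40 groups of 5 libraries (10 members at 4 times), 2 held a library far from the other 4 by Dixon's test, about the 1 in 20 that chance gives. Pmaip1 was at 89.0 CPM in ZT12 replicate 5, against 61.5 to 69.2 in the other 4, and Bid was at 13.8 CPM in ZT12 replicate 1, against 16.1 to 16.6.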

How the results depend on the processing

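No called value of the 10 members reversed its direction under the alternatives run; named genes of the lists were not rerun one by one. The count of 5 members over the 4 times stayed at 5 to 6 without each library in turn, and those of ZT6 minus ZT0 and ZT0 minus ZT18 stayed at 5 and 3. In ZT6 minus ZT0, Bcl2l11 was lost without the 3 epithelial libraries, and with 2 groups only Bcl2l1 and Bcl2l11 were lost and Pmaip1 was gained; in ZT0 minus ZT18, Bcl2l11 was lost with 2 groups only. The 4 members of the mid-phase contrast became 3 to 4. The ranges without each library were 1 to 2 for the 24 h wave, 0 to 1 for ZT12 minus ZT0, for ZT18 minus ZT6 and for ZT12 minus ZT6, and 1 to 2 for ZT18 minus ZT12. The 24 h wave was called for 5 members relative to library totals, for 1 with immunoglobulin genes left out of the scaling, with 10 counts in all, with no filter or without the 3 epithelial libraries, and for 0 with JTK. In ZT12 minus ZT0 the 1 call became 5 with library totals and 0 with 10 counts in all, no filter or 2 groups only. In ZT18 minus ZT6 it became 0 with library totals, 10 counts in all, no filter, 2 groups only or without the 3 epithelial libraries. In ZT12 minus ZT6 it became 0 with no filter and 2 with DESeq2, and in ZT18 minus ZT12 it became 0 without the 3 epithelial libraries and 2 with DESeq2; the cause was not tested.

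Without each library the log2 ratio of Mcl1 to Bcl2l11 ranged from -0.372 to -0.112 in ZT12 minus ZT0 and from -0.174 to -0.063 in ZT18 minus ZT6, that of Mcl1 to Pmaip1 from -0.337 to -0.235 and from -0.319 to -0.181, and that of Bcl2 to Bcl2l1 from 0.15 to 0.368 and from -0.465 to -0.241. Replicate numbers did not pair the samples: over 30 same-numbered pairs the median correlation of deviations was 0.01, 0 were over 0.1, and 4 of 20 libraries correlated best with their own number. With a replicate block the call of ZT12 minus ZT6 went from 1 to 2 members, with Pmaip1 added, as it was over the 4 times (adjusted p = 0.00129), in ZT6 minus ZT0 (0.00999, to 6 members) and in the mid-phase contrast (0.00192, to 5), and the ratio of Mcl1 to Pmaip1 in ZT12 minus ZT0 (log2 -0.306) gave an adjusted p of 0.125 in a sign-flip test whose smallest p is 0.0625.

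Over all genes, scaling to library totals shifted the calls: ZT12 minus ZT0 from 274 higher and 265 lower to 38 and 921, ZT12 minus ZT6 from 327 and 313 to 41 and 706, ZT18 minus ZT12 from 670 and 718 to 924 and 259, ZT18 minus ZT6 from 565 and 586 to 239 and 451, ZT6 minus ZT0 from 649 and 577 to 224 and 463, ZT0 minus ZT18 from 472 and 585 to 521 and 165, and the mid-phase contrast from 714 and 606 to 557 and 253. Without the 3 epithelial libraries ZT18 minus ZT6 had 734 calls against 1151, ZT0 minus ZT18 had 656 against 1057 and the mid-phase contrast 859 against 1320; JTK called 227 genes against 1578 for the fitted wave. The lowest counts among the members were those of Bad and Bcl2l1, at 141 to 382 and 183 to 594 a library.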
